A study of Homo sapiens with 6 samples.

Results

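The 8 genes described here were grouped under vasoactive peptide signaling, although VGF encodes a precursor of neuropeptides. All were measured in hepatocellular carcinoma (HCC) cells that overexpress transketolase (TKT), an enzyme of the pentose phosphate pathway, and in control cells. They were NPPB, EDN1, EDNRB, ECE1, ADM, ADM2, VGF and AGT, and all 8 of 8 had a row among the 22077 gene symbols of the count table. The genes were chosen by their gene symbol with their counts in this same comparison already known, so their levels and fold changes are given as a description without p-values, and counts of calls among them are no evidence of their own. RNA-seq covered 3 libraries of TKT-overexpressing cells and 3 of control cells, the latter labelled VC with a wild-type genotype, and no drug or time point separates the groups. The labels spell the cell line Hu7, while the text of the study gives Huh7, an established human HCC line, in its Results and HCCLM3, another HCC line, in its Methods. TKT was introduced with an expression plasmid (pTSB02-GFP-PURO), and levels in single cells or clones were not measured. The study states in general that its experiments were repeated independently, but the labels do not say whether the libraries of a group came from separate cultures, so the p-values below measure the spread between these libraries, which may be technical.

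Totals lay between 30148788 and 37096156 counts per library. TKT itself had between 9392 and 9549 CPM (counts divided by library size and scaled by the trimmed mean of M-values, TMM) in the TKT-overexpressing libraries and between 469 and 515 CPM in the control libraries. Markers of hepatocytes summed to between 20520 and 20870 CPM on overexpression and between 19930 and 20320 CPM in control cells, and 9 of the 10 passed the expression filter. The exception was APOB, the gene of the major protein of low-density lipoprotein, which had at most 6 counts in any library although ALB and AFP each had at least 237975 in all of them. A count near 0 was therefore read here only as a count, not as a silent gene. Where the counting assigned reads without strand, genes whose exons overlap those of a gene on the other strand cannot be told apart there. Genes whose exons overlap on the same strand cannot be told apart in the shared stretch under any strand setting. EDNRB, ECE1 and AGT overlap other annotated genes over their whole length, introns included, and whether exons overlap was not checked. The strand setting is not given in the sources used here.

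Vasoactive peptides are secreted signals that widen or narrow blood vessels and adjust salt and water balance. Each is made as a longer precursor that proteases trim, and each acts on receptors at the surface of nearby cells or of distant organs. B-type natriuretic peptide, encoded by NPPB, relaxes vessels through a receptor that makes cyclic GMP, endothelin-1, encoded by EDN1, constricts them through G protein-coupled receptors, and adrenomedullin, encoded by ADM, widens them through a receptor built from CALCRL and a RAMP subunit. Liver cells are the main source of angiotensinogen, the product of AGT, from which proteases release angiotensin II in steps.

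The ligand genes NPPB, EDN1, ADM and VGF were higher in every TKT-overexpressing library than in any control library, as was the receptor gene EDNRB. The ligand gene ADM2 and the protease gene ECE1 were lower in every TKT-overexpressing library, and AGT overlapped between the groups. Values did not overlap in 7 of the 8 genes, and this was so in 28.0% of the 14162 tested genes. The edgeR quasi-likelihood test over the whole table gave an adjusted p-value under 0.05 for 5 of the 8, 4 higher and 1 lower, against 10.6% of all tested genes (5.69% higher and 4.94% lower). With the further limit of an absolute log2 fold change over 1, NPPB and VGF remained, 2 of the 8, against 0.727% of all tested genes. Nothing is read from these counts, since the genes were chosen with this contrast known. Their median log2 fold change was 0.60, and that of all tested genes was 0.00.

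**Figure D1:**
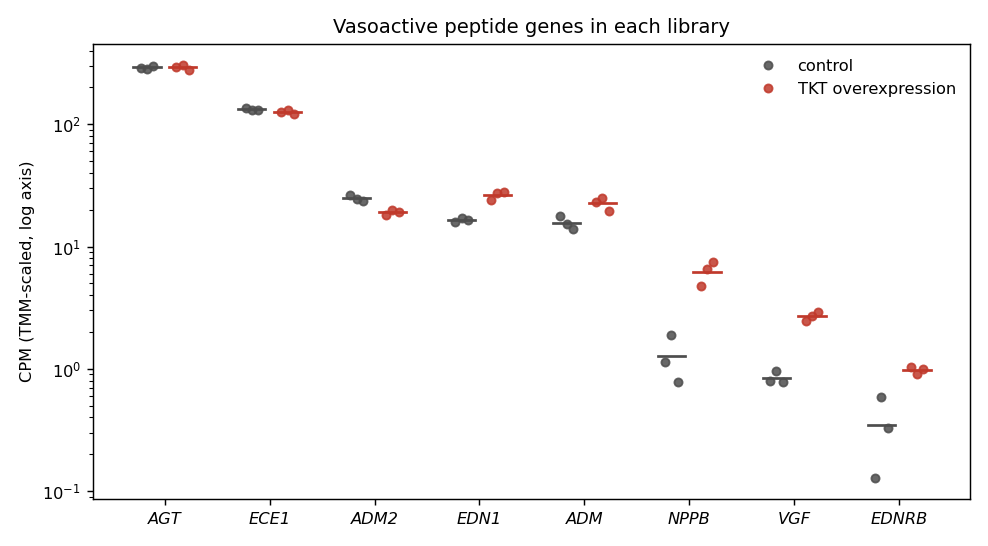
CPM of the 8 genes on a log axis, with 1 point per library and a line at the mean of 3 libraries, for control (grey) and TKT-overexpressing (red) cells. NPPB, VGF and EDNRB, all under 10 CPM, show the widest gap between the groups, and AGT and ECE1, over 100 CPM, the narrowest.

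Promoter windows are shown first, for EDN1, VGF and ADM, which were all higher. RefSeq promoters on GRCh38.p14 matched 7 of the 8 genes. The gene without a match was NPPB. The 250 bases before the start nearest to the GENCODE start of each gene were searched on both strands for AP-1 sites (TGANTCA), the partial cyclic AMP response element (TGACG), E-boxes (CACGTG, bound by c-Myc and related factors), TEAD sites (GGAATG), the hypoxia response core (ACGTG, which every E-box also contains) and GATA sites (AGATAA). Of 35114 promoters of the same length, these letters were found in 6.57%, 21.2%, 6.35%, 11.9%, 18.5% and 9.17%. A match is a description of the letters only. EDN1 (chr6:12290111-12290360, plus strand) and VGF (chr7:101165570-101165819, minus strand) are shown 5′ to 3′, since they held the most matches, and ADM (chr11:10304823-10305072, plus strand) for comparison, with every match in capitals:
EDN1: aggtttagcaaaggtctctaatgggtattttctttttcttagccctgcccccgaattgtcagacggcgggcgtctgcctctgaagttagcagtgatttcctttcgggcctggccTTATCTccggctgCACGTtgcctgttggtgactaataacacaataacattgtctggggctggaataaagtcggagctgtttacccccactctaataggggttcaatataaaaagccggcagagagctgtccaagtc
VGF: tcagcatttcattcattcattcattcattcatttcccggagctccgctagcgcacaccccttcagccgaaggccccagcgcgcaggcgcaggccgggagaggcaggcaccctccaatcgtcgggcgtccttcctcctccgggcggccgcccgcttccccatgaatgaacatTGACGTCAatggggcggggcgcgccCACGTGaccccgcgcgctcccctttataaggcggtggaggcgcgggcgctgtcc
ADM: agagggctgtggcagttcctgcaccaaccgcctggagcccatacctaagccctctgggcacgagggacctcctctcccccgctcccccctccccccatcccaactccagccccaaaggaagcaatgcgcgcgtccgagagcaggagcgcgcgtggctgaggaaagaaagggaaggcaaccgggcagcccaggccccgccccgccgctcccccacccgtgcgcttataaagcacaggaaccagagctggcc

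EDN1 held 1 GATA match, which begins 136 bases before the start, and 1 hypoxia response core at 123. VGF held a pair of overlapping partial elements at 79 and 76, which together spell the full palindromic element, and 1 E-box at 54, which is also read as the hypoxia response core on either strand. EDNRB held 1 hypoxia response core at 196, before a start inside the annotated gene. ADM, ADM2, ECE1 and AGT held none of the 6 motifs in this window. The ADM window, like that of EDNRB, lay wholly inside the annotated gene, so the sequence in front of that gene was not searched. The windows of VGF, ECE1 and AGT lay partly inside their annotated genes. Of the genes that were higher in TKT-overexpressing cells, EDN1, EDNRB and VGF thus held the hypoxia response core and ADM did not. That core was found in 18.5% of all promoters of this length. No motif of the 6 was in all of these windows, but nothing is read from this, given where the ADM window lay. NPPB, also higher, had no window and is not covered. Only exact letters were searched, so variants of a motif were missed. Further starts of EDN1 held hypoxia response cores, a partial cyclic AMP response element and a TEAD match. A further start of EDNRB held hypoxia response cores and a TEAD match, and further starts of ECE1 held none.

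NPPB had the largest fold change of the 8 genes. The gene occupies chr1:11857464-11858931 (GRCh38, minus strand) and overlaps no other annotated gene of GENCODE 29. TKT-overexpressing libraries had 176, 201 and 244 counts of NPPB, and control libraries had 36, 57 and 26. Scaled, these were 4.75, 6.52 and 7.42 CPM against 1.15, 1.88 and 0.775 CPM, so the lowest TKT-overexpressing library stood above the highest control library. The mean was 6.23 ± 1.36 CPM on overexpression and 1.27 ± 0.560 CPM in control cells (SD, n = 3 each). The log2 fold change was 2.30 (SE, its standard error, 0.27), which ranked 25 from the highest among the 14162 tested genes. At 26 counts, the rarest control library had an exact 95% Poisson interval of 17.0 to 38.1 counts, which covers counting error only. Without control replicate 2, the highest control library, the log2 fold change was 2.70, and without control replicate 3, the lowest, it was 2.04.

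The other natriuretic peptide genes were near the floor in both groups. NPPA, which encodes the atrial peptide, is the neighbouring gene, with 9118 bases and no annotated gene between it and NPPB. It had 4, 2 and 1 counts on overexpression and 11, 3 and 2 in control cells, and did not pass the expression filter. NPPC, which encodes the C-type peptide, had 2, 4 and 16 counts against 3, 2 and 4. NPPB was thus the only one of these 3 ligand genes with counts above 16 in any library.

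NPPB precursor is cleaved by furin or by corin, and the peptide acts on the guanylyl cyclase receptor NPR1 and is cleared by NPR3. FURIN was abundant, with 88.4 ± 0.951 FPKM (the authors' values, fragment counts scaled for gene length and library size) on overexpression and 86.2 ± 1.27 FPKM in control cells (SD, n = 3 each). Its log2 fold change was 0.03 (SE 0.04, edgeR adjusted p = 0.636). CORIN had between 6 and 12 counts in the 6 libraries. NPR1 had 28, 4 and 16 counts on overexpression and 14, 17 and 16 in control cells, and its adjusted p-value from edgeR was 0.951. NPR2, which encodes the receptor of the C-type peptide, was the best measured receptor of the family, at 1.40 ± 0.0211 FPKM against 1.24 ± 0.0439 FPKM (SD, n = 3 each, edgeR adjusted p = 0.366). NPR3 had 10, 10 and 23 counts against 4, 4 and 2, and was too low to be tested. Its values did not overlap between the groups, as was also so for NPR2 and for 28.0% of all tested genes. Markers of cardiomyocytes, the classical source of natriuretic peptides, summed to between 0.0972 and 0.432 CPM on overexpression and between 0.0988 and 0.350 CPM in control cells, with 4 of 8 markers in the table and 0 past the expression filter. NPPA is one of these markers.

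Among the endothelin genes, EDN1, the ligand, and EDNRB, the receptor, were higher on overexpression. ECE1, the protease that releases mature endothelin-1, was lower by a small amount. Neither EDNRB nor ECE1 was called. EDN1 occupies chr6:12290363-12297194 (plus strand). It had 887, 850 and 913 counts on overexpression and 503, 521 and 554 in control cells. These correspond to 23.9, 27.6 and 27.8 CPM against 16.0, 17.1 and 16.5 CPM, and the groups were well apart. The means were 26.4 ± 2.15 and 16.6 ± 0.572 CPM (SD, n = 3 each), and the log2 fold change was 0.67 (SE 0.09). With each library left out in turn it lay between 0.64 and 0.74. Endothelial markers, the classical source of endothelin-1, summed to between 78.97 and 83.4 CPM on overexpression and between 82.7 and 101 CPM in control cells. These sums came mainly from EGFL7 and PECAM1, while VWF had at most 2 counts.

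EDNRB (chr13:77895481-77975529, minus strand), a receptor that binds all endothelins, was the rarest of the 8 genes. It had 38, 28 and 33 counts on overexpression and 4, 18 and 11 in control cells, that is 1.03, 0.908 and 1.00 CPM against 0.127, 0.592 and 0.328 CPM. The control libraries differed among themselves by more than the TKT-overexpressing ones, with a coefficient of variation of 66.8% against 6.40%. The log2 fold change was 1.48 (SE 0.49), and this gene was among the 3 of 8 without an adjusted p-value under 0.05. It was called with limma-voom, with no filter on low counts and without control replicate 2. It passed the expression filter through the TKT-overexpressing libraries, of which 3 had at least 10 counts, as against 2 of the control libraries. Without control replicate 2, which held the most EDNRB and also the most NPPB among the control libraries, the log2 fold change was 2.08, and without control replicate 1 it was 1.09. EDNRB overlaps the antisense gene RNF219-AS1 and, on its own strand, AL139002.1 and RN7SL810P. The other endothelin receptor gene, EDNRA, the other ligand genes EDN2 and EDN3, and ECE2 and KEL had no row in the count table.

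ECE1 (chr1:21217247-21345572, minus strand) had 4707, 4004 and 4025 counts on overexpression and 4296, 3971 and 4364 in control cells. After scaling, these were 127, 130 and 122 CPM against 137, 131 and 130 CPM. The groups lay next to each other without overlapping, the nearest libraries being 129.8 CPM on overexpression and 130.04 CPM in control cells. A log2 fold change of -0.07 (SE 0.04) resulted, and the gene was not among the 5 called.

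ADM and its relative ADM2 differed in opposite directions. ADM (chr11:10304680-10307397, plus strand) had 860, 763 and 648 counts on overexpression against 560, 465 and 470. Scaled values were 23.2, 24.7 and 19.7 CPM against 17.8, 15.3 and 14.0 CPM. The third TKT-overexpressing library was the lowest of its group and still above all control libraries. The log2 fold change was 0.52 (SE 0.10), and it lay between 0.44 and 0.62 with each library left out in turn.

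ADM2 encodes intermedin, which acts through the same receptor complexes as adrenomedullin. The gene occupies chr22:50481556-50486440 (plus strand). Its counts were 674, 617 and 633 on overexpression and 837, 743 and 789 in control cells, or 18.2, 20.0 and 19.2 CPM against 26.6, 24.5 and 23.5 CPM. The groups did not overlap, with means of 19.1 ± 0.910 and 24.9 ± 1.60 CPM (SD, n = 3 each). The log2 fold change was -0.38 (SE 0.08), with a range of -0.42 to -0.33 when each library was left out. ADM2 was the only called gene of the 8 that was lower.

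Receptor genes for both peptides were measured unevenly. CALCRL, the G protein-coupled subunit that binds adrenomedullin, had 1, 0 and 0 counts on overexpression and 2, 0 and 0 in control cells. Its partners were well above that. RAMP1 had 4.21 ± 0.0997 and 3.69 ± 0.704 FPKM on overexpression and in control cells, and RAMP2 had 6.68 ± 0.777 and 8.70 ± 0.480 FPKM (SD, n = 3 each). RAMP2, which gives the receptor its preference for adrenomedullin, was lower in each TKT-overexpressing library than in any control library, with a log2 fold change of -0.39 (SE 0.13) and an edgeR adjusted p-value of 0.0631. It was called without TKT overexpression replicate 2 and in both limma fits on FPKM. PAM, which amidates the C-terminus of both peptides, had a log2 fold change of -0.08 (SE 0.09, edgeR adjusted p = 0.633). RAMP3 and ACKR3 had no row in the count table.

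AGT (chr1:230702523-230714297, minus strand) was the most abundant of the 8 genes and differed least. It had 10943, 9481 and 9172 counts on overexpression and 9130, 8648 and 10108 in control cells, which scaled to 295, 307 and 279 CPM against 291, 285 and 301 CPM. The ranges overlapped, and the log2 fold change was 0.01 (SE 0.04). With each library left out in turn, it lay between -0.03 and 0.04.

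Of the other genes of the angiotensin system, 10 of 18 passed the expression filter. Only THOP1, which encodes a peptidase that cuts angiotensin I, was called, and it was lower. It had 202, 204 and 195 CPM on overexpression and 226, 213 and 229.5 CPM in control cells, a log2 fold change of -0.15 (SE 0.04, edgeR adjusted p = 0.0160). Its adjusted p-value was above 0.05 without TKT overexpression replicate 1 (0.0596), TKT overexpression replicate 3 (0.0660), control replicate 1 (0.0839) or control replicate 3 (0.0736), in both limma fits on the deposited FPKM (0.0579 and 0.0571), and in the fit with a replicate block (0.0946). AGTR1, the main angiotensin II receptor, had between 112 and 159 counts in all 6 libraries (log2 fold change -0.18, SE 0.18, edgeR adjusted p = 0.6005). ACE, the converting enzyme, had at most 7 counts.

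VGF encodes a granin-like precursor of neuropeptides, first known as a gene induced by nerve growth factor. The gene occupies chr7:101162509-101165593 (minus strand). Counts were 91, 83 and 95 in the TKT-overexpressing libraries and 25, 29 and 26 in the control libraries. Scaled, they were 2.46, 2.69 and 2.89 CPM against 0.796, 0.955 and 0.775 CPM, with little spread inside either group. The means were 2.68 ± 0.217 and 0.842 ± 0.0983 CPM (SD, n = 3 each), and the log2 fold change was 1.67 (SE 0.27).

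Most other granin and prohormone-processing genes had few counts. CHGB, which encodes another granin, had 30, 28 and 26 counts on overexpression and 12, 12 and 19 in control cells, with a log2 fold change of 0.89 (SE 0.43, edgeR adjusted p = 0.218). PCSK1, a prohormone convertase that cuts VGF, had at most 1 count, and CPE, the carboxypeptidase of secretory granules, had 15.6, 15.8 and 14.2 CPM against 15.3, 18.9 and 18.4 CPM. Markers of neuroendocrine cells summed to between 8.04 and 9.52 CPM on overexpression and between 4.74 and 5.86 CPM in control cells, with 5 of 7 in the table and 2 tested. The higher sum came mainly from SYT1, a synaptic vesicle protein, with a log2 fold change of 0.82 (SE 0.17, edgeR adjusted p = 0.00322), while INSM1 had at most 4 counts and CHGA at most 3. The part of these markers in the VGF result was not tested.

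**Figure D2:**
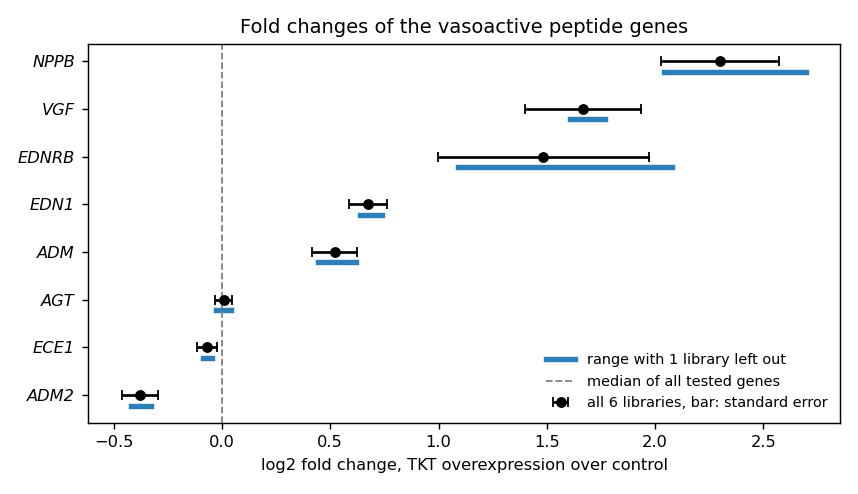
Log2 fold change of TKT overexpression over control for the 8 genes with its standard error (black, 6 libraries), and the range of the value when 1 library is left out (blue). NPPB and EDNRB move most with the library left out, and ADM2 and ECE1 stay below 0 in every case.

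Compared per gene length, the order of the 8 genes changed in 1 place. In control cells the deposited FPKM fell from AGT (22.9 ± 0.509) and ECE1 (18.0 ± 0.468) through EDN1 (8.09 ± 0.342), ADM (6.72 ± 0.822) and ADM2 (5.77 ± 0.366) to NPPB (1.78 ± 0.805), VGF (0.313 ± 0.0393) and EDNRB (0.0621 ± 0.0420), each as mean ± SD of 3 libraries. On overexpression AGT (23.1 ± 0.826), ECE1 (17.2 ± 0.290), EDN1 (12.95 ± 1.10) and ADM (9.66 ± 0.987) kept their places, and NPPB (8.78 ± 1.98) stood above ADM2 (4.45 ± 0.202). VGF (0.997 ± 0.0891) and EDNRB (0.174 ± 0.0127) stayed last. Neighbours in this order whose libraries overlapped were ADM and ADM2 in control cells and ADM and NPPB on overexpression.

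**Figure D3:**
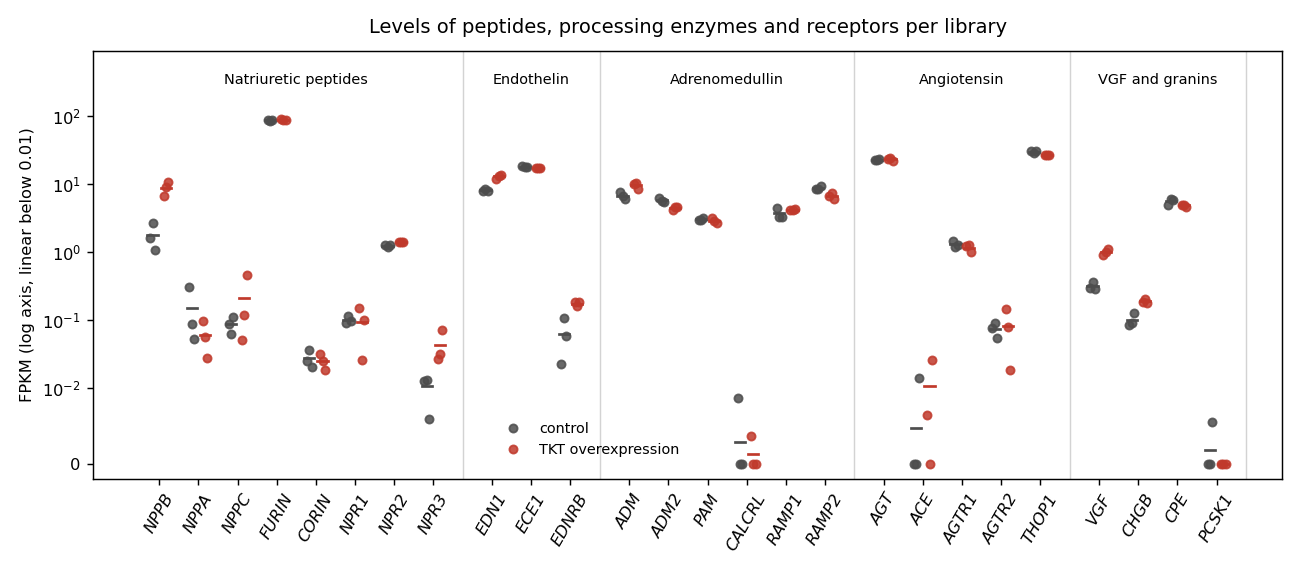
Deposited FPKM of the 8 genes and of processing enzymes and receptors of the same systems, with 1 point per library and a line at the mean, for control (grey) and TKT-overexpressing (red) cells, on an axis that is logarithmic above 0.01. FURIN, ECE1, THOP1 and the RAMP genes lie between 3 and 100 FPKM, and CALCRL, ACE and PCSK1 lie at or near 0.

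To set the 8 genes beside the rest of their pathways, 91 other genes of 6 peptide systems were examined, of which 62 had a row in the table and 31 passed the expression filter. The endothelin list had 5 genes and 0 with a row, so the 31 hold no endothelin gene. At the same threshold edgeR called 2 of the 31, 1 higher and 1 lower, or 6.45% against 10.6% of all tested genes. DESeq2 also called 2, and 3 had an unadjusted p-value under 0.05 in edgeR. Their median log2 fold change was 0.02. The higher gene was KNG1, which encodes kininogen, the liver-made precursor of the vasodilator bradykinin. It had 53.6, 53.6 and 51.4 CPM on overexpression and 47.6, 44.1 and 42.7 CPM in control cells, a log2 fold change of 0.24 (SE 0.06, edgeR adjusted p = 0.00858), and without TKT overexpression replicate 1 its adjusted p-value was 0.0576. The lower gene was THOP1. Among the natriuretic genes 0 of 4 tested were called by edgeR or by DESeq2, with 0 at an unadjusted p-value under 0.05 in edgeR. Among the adrenomedullin and calcitonin genes it was 0 of 5 in both tools, with 1 at an unadjusted p-value under 0.05 in edgeR, RAMP2. Among the granin and prohormone-processing genes it was 0 of 2 in both tools, with 0 at an unadjusted p-value under 0.05 in edgeR. The angiotensin list held 1 call of 10 tested (THOP1) and the list of other vasoactive peptides 1 of 10 (KNG1). UTS2R, the receptor of urotensin II, and NTS, the neurotensin precursor, were well measured (55.5 and 109 CPM on overexpression) and had log2 fold changes of 0.01 and -0.04, with edgeR adjusted p-values of 0.924 and 0.630.

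**Figure D4:**
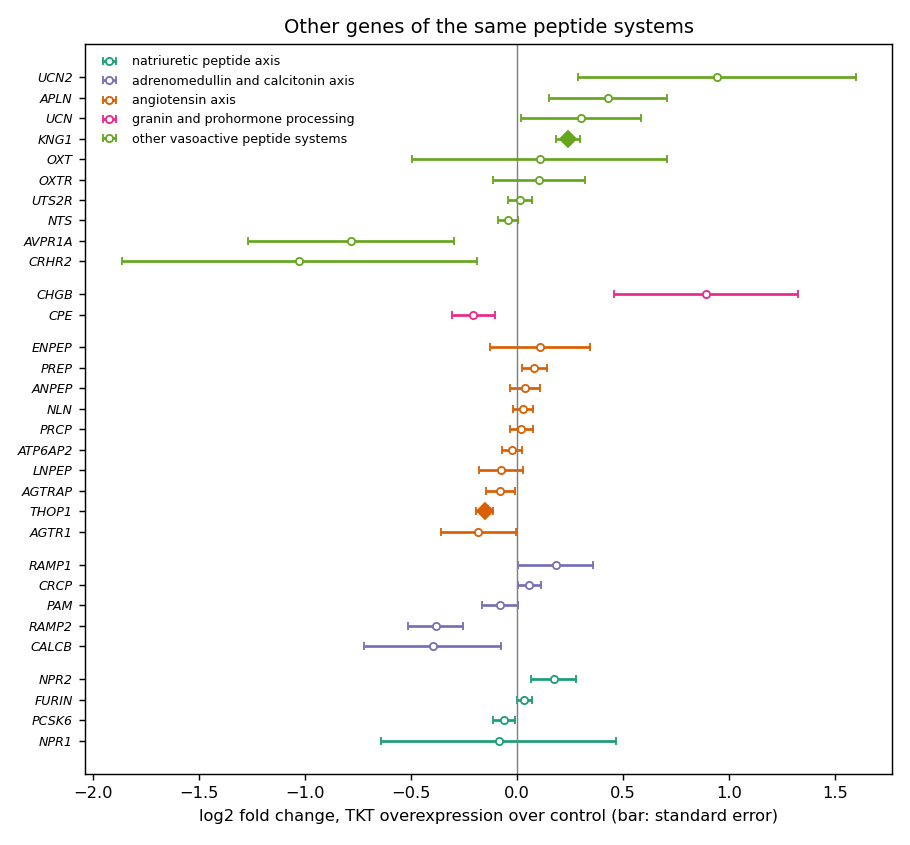
Log2 fold change with its standard error for the 31 tested genes of the same peptide systems that are not among the 8, coloured by system, with filled diamonds for an adjusted p-value under 0.05 in edgeR. KNG1 (0.24) and THOP1 (-0.15) are the filled points, and the widest bars belong to CRHR2 and UCN2, which have at most 22 counts in any library.

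The annotation deposited with the counts shows what the 8 genes have in common. Hormone activity is assigned to 6 of them and to 38 tested genes in all, extracellular region to 6 and regulation of blood pressure to 4. The KEGG pathway neuroactive ligand-receptor interaction lists 6 of the 8, and vascular smooth muscle contraction lists NPPB, EDN1, ADM, ADM2 and AGT. In the first of these, edgeR called 7 of the 103 other tested genes higher and 4 lower, or 10.7%. In vascular smooth muscle contraction it was 5 higher and 6 lower of 75, or 14.7%, and in the cGMP-PKG pathway, which lists NPPB and EDNRB, 13 higher and 9 lower of 103, or 21.4%. The share called was 10.6% over all tested genes and between 10.7% and 21.4% in the 9 pathways that list at least 2 of the 8 genes. These pathways were taken up after the values were seen.

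Across the 6 libraries, the log2 CPM of NPPB closely followed that of CLDN1 (Pearson r = 0.997) and SEC62 (0.995), that of EDN1 followed CWC27 (0.996) and BCL6 (0.995), and that of ADM followed RPL12P14 (0.995), ATP13A1 (0.994) and TFG (0.993). RPL12P14 is a ribosomal protein pseudogene, whose reads can be shared with its parent gene. Pearson r does not measure the size of a change. The log2 fold changes were 0.13 for CLDN1 and 0.26 for SEC62 against 2.30 for NPPB. They were 0.18 for CWC27 and 0.59 for BCL6 against 0.67 for EDN1, and 0.77 for RPL12P14, 0.09 for ATP13A1 and 0.11 for TFG against 0.52 for ADM. The correlations are taken over 6 libraries in 2 conditions, so they include the difference between the groups. Agreement inside a group was not examined. They are descriptions, picked as the highest among 11285 genes. Of these, 205 had an r over 0.95 with NPPB, 233 with EDN1 and 79 with ADM.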

How the data were processed

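Total RNA from 3 TKT-overexpressing and 3 control samples was sequenced as 150 bp paired-end reads. Per the submitters' processing notes and the study's methods, the authors used fastp 0.22.0 for trimming, HISAT2 2.1.0 for alignment to hg38 and featureCounts for gene counts. The count values are deposited without normalization, with 22077 gene symbols and 0 unnamed rows. The authors also deposited FPKM, which match the counts times 1 factor per gene and 1 per library within 1% for 99.9% of well-counted genes. The annotation and the strand and multi-mapping options are not given in the sources used here.

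The main test was the one of edgeR 4.0.16 in R 4.3.3 (filterByExpr with a minimum count of 10, TMM, robust quasi-likelihood test, Benjamini-Hochberg adjustment over 14162 tested genes). CPM are counts over TMM-scaled library sizes. The standard error of a log2 fold change is its size over the square root of F. Genes were called at an adjusted p-value under 0.05, and the study's limit of an absolute log2 fold change over 1 was counted as well. The smallest library had 30148788 counts, so 3 counts there equal 0.0987 CPM. The common biological coefficient of variation was 0.113. Gene positions are from GENCODE 29 (GRCh38). Alternatives were DESeq2 1.42.0, limma 3.58.1 (voom, and log2(FPKM + 1) or log2(FPKM + 0.1)), other scalings and filters, the replicate number as a block, and each library left out.

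The 8 genes, the 6 lists of related genes, the marker lists and the motifs were chosen with earlier results of these data known. Named are the 8 genes, called list members, genes of the peptides' own systems, TKT, and the 3 genes most like NPPB, EDN1 and ADM. Some genes that this rule or the marker lists name are not reported here. Others, namely CHGB, CPE, UTS2R, NTS, CRHR2, UCN2, the marker genes and those in the closing section, were named after their values were seen. On simulated counts with 198 changed genes among 14003 tested, edgeR recovered 186 (87.8% of the 2-fold and 100% of the 4-fold changes) with 9 false calls. The simulation gave every gene the same dispersion. Its shares therefore do not describe genes with a wider spread between libraries, such as EDNRB in control cells. No pair of libraries looked like copies, since the chi-square per degree of freedom of their counts was at least 6.90.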

Additional observations from a re-analysis of the deposited data

How the results depend on the processing

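The log2 fold changes of NPPB, EDN1, ECE1, ADM and ADM2 moved by less than the spread between libraries in all 16 alternatives and kept their sign. That of AGT, near 0, lay between -0.03 and 0.04. With limma on log2(FPKM + 1), the fold change was 0.15 for EDNRB and 0.61 for VGF, and on log2(FPKM + 0.1) it was 0.79 for EDNRB and 1.41 for VGF, since a pseudocount understates the change of rare genes. EDNRB had no value at a minimum of 10 counts in every library. At an absolute log2 fold change over 1, 2 of the 8 genes were called and 0 related genes (0 higher and 0 lower), against 103 genes in all. DESeq2 also called 0 related genes with a change of that size, and 0 had both that change and an unadjusted p-value under 0.05 in edgeR. Over all genes, limma on log2(FPKM + 1) called 827 and on log2(FPKM + 0.1) 826, against 1505.

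The groups share replicate numbers, but same-numbered libraries did not deviate together (correlations between -0.03 and 0.02). With the replicate block, 697 genes were called in all, and of the related genes 1 was called, with 0 lower, THOP1 having an adjusted p-value of 0.0946. The 8 genes had 5 calls in that fit as in the fit without it. With each library left out in turn, the calls lay between 791 and 1586 for all genes and between 0 and 3 for related genes, of which between 0 and 1 were higher and between 0 and 2 lower. Without TKT overexpression replicate 1, 791 genes were called in all and 0 related genes, and without control replicate 1 it was 881 and 1. In all 16 alternatives of tool, scaling, filter, block and library, the 5 calls NPPB, EDN1, ADM, ADM2 and VGF remained. EDNRB was the 6th with limma-voom, with no filter and without control replicate 2. These fits reuse the libraries in which the genes were chosen, so calls that remained add no support of their own. Depth limits EDNRB, NPPB and VGF, whose control libraries had between 4 and 57 counts.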

Other observations

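Some other peptide genes had uneven counts. NPY, a vasoconstrictor peptide of sympathetic nerves, had 24 counts in control replicate 1 and at most 6 in the other libraries. AVP, which encodes vasopressin, had 16 counts in control replicate 3 and at most 4 elsewhere, and PCSK1N, an inhibitor of prohormone convertase, had 16 counts in TKT overexpression replicate 2 and 0 in the others. AGTR2, the other angiotensin II receptor gene, had 18, 8 and 2 counts on overexpression and 8, 9 and 6 in control cells. NPY, AVP, PCSK1N and AGTR2 did not pass the expression filter. APLN, which encodes the vasodilator apelin, passed it and had 102, 53 and 70 counts on overexpression and 60, 58 and 37 in control cells, with a log2 fold change of 0.43 (standard error, SE, 0.28, edgeR adjusted p = 0.389).

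Among the marker genes, FGB, the fibrinogen beta chain made by hepatocytes, had a log2 fold change of 0.50 (SE 0.03) and HNF4A, a transcription factor of hepatocytes, one of -0.15 (SE 0.04, edgeR adjusted p = 0.00720). SMTN, a cytoskeletal protein of smooth muscle, had one of 0.21 (SE 0.05, edgeR adjusted p = 0.00537), while ACTA2 had at most 6 counts and DES at most 2. Smooth muscle and pericyte markers summed to between 110 and 113.7 CPM on overexpression and between 95.03 and 100.2 CPM in control cells. Leukocyte markers summed to between 7.07 and 7.80 CPM on overexpression and between 6.88 and 9.29 CPM in control cells, mainly from CD14.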
